A study of Mus musculus with 78 samples.

Results

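Autosomal transcript levels were compared between male and female soleus muscles of old mice. The libraries are the 9 labelled M and the 6 labelled F among the 20-month control mice of batch 1, 15 of the 78 libraries of the series, and all 15 carried sex-linked transcripts that match their letter. Autosomal genes were kept where their counts passed a filter on low values, which left 14692 genes for the test. The letters M and F were read as male and female.

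The series holds bulk RNA sequencing of mouse soleus from control mice of several ages and from mice given candidate geroprotective compounds. Both groups described here were C57Bl/6 mice on control feed, labelled 20 months old, with no compound given, and differed by sex. The 20-month animals came from the Jackson laboratory and the 6- and 12-month animals from Invivos, and each had 2 months to acclimatise before the experiment, so the labelled age may be the age on arrival or at death. Muscles were kept in RNALater for 24 h and frozen before RNA extraction. Nothing in the labels ties a library to a cage or litter, so the p-values below measure the spread between libraries that the labels call replicates.

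The soleus is a postural calf muscle rich in slow, oxidative (type I) fibres, which use their own isoforms of myosin, troponin and tropomyosin. Testosterone acts on muscle through the androgen receptor, oestradiol through oestrogen receptors, and growth hormone, which is released in sharper pulses in male rodents, through STAT5. Muscles of male and female rodents are known to differ in fibre size, in fibre type and in the use of fat as fuel.

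Library depth was alike in both groups, with 32520143 to 61465693 counts in M and 34431674 to 60018450 in F. Xist, the RNA that coats the inactive X chromosome, was at most 0.07001 CPM in M and 144.5 to 187.5 CPM in F, and Ddx3y, a Y-linked helicase, was at 93.53 to 126.1 CPM in M and at 0 in F. These levels and the summed levels of lists are CPM of the library's total counts, scaled to 1e6, whereas the levels of single genes given from here on are CPM of library totals adjusted by TMM factors. Transcripts of the mitochondrial genome took 17.94 to 20.66% of counts in M (median 18.44%) and 14.96 to 17.12% in F (median 16.32%), so the groups did not overlap in that share. Myh7, the slow myosin gene that defines a slow muscle such as the soleus, averaged 9004 CPM in M and 15359 CPM in F. One M library, replicate 4, had the fewest genes detected (17773, against 19816 or more in F) and lay farthest from the other M libraries, and without it 418 autosomal genes passed the test below.

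Of the 14692 autosomal genes, 414 differed between M and F (2.82%; edgeR quasi-likelihood test, Benjamini-Hochberg adjusted p under 0.05), 222 higher in M (1.51%) and 192 lower in M (1.31%). Most differences were small: the median log2 fold change of M over F was 0.456 among the higher genes and -0.589 among the lower genes, and 68 genes differed by a fold of 2 or more, 40 higher and 28 lower in M. For 98 of the higher genes every M library was above every F library, and for 56 of the lower genes every M library was below every F library. Over all autosomal genes tested, 1.14% had no overlap between the groups, 0.694% with every M library above every F library and 0.442% with every M library below. Protein-coding genes made up 390 of the 414. The number of calls depended on the model. A fit that shares its estimate of spread with all groups of the series, mice given a compound among them, called 30 genes. Of these, 27 were among the 414. Leaving out F replicate 3 gave 241.

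**Figure D1:**
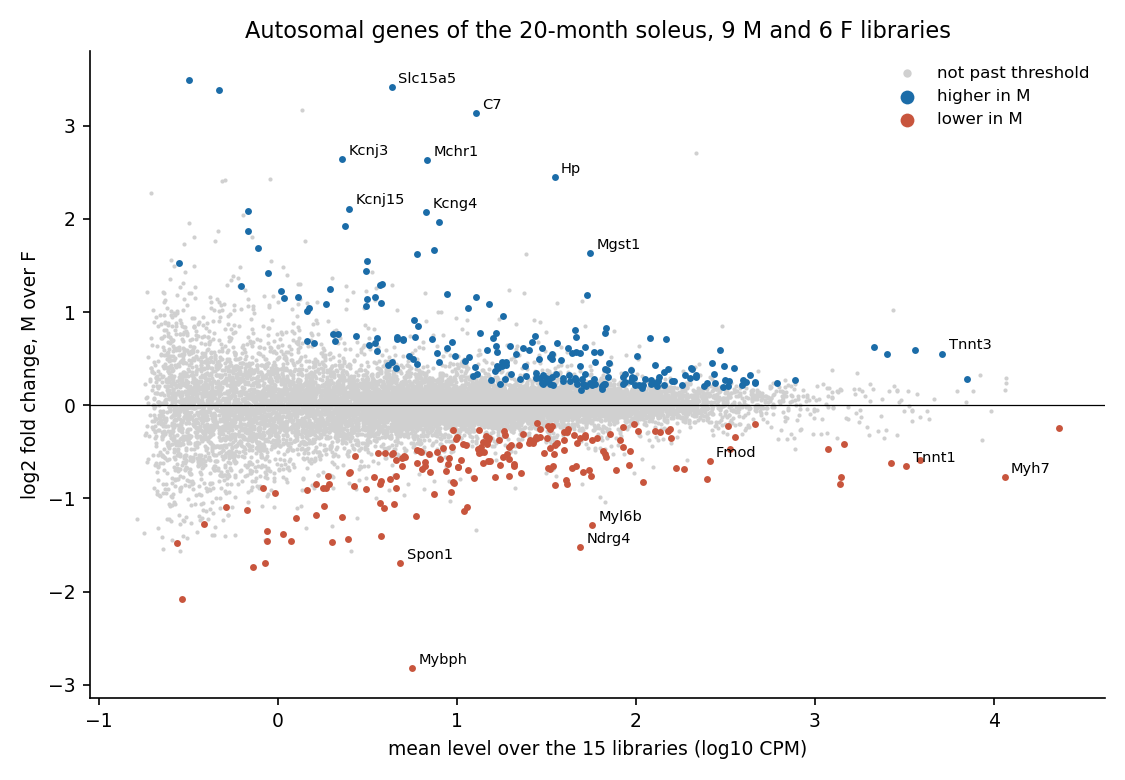
Log2 fold change of M over F for each of the 14692 autosomal genes tested (vertical axis) against the mean level over the 15 libraries in log10 CPM (horizontal axis). Coloured points are the 222 genes higher in M and the 192 lower in M at an edgeR adjusted p under 0.05, grey points are the other genes, and labels mark genes described in the text. Among the labelled genes Slc15a5 and C7 stand at the top, with log2 fold changes of 3.42 and 3.14.

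The 7 autosomal genes with the lowest p-values were several-fold higher in M muscles, with no overlap between the groups. Slc15a5, a member of the SLC15 family of proton-coupled peptide transporters, ran at 4.82 CPM in the lowest M library, 6.70 at the median and 8.57 in the highest, against 0.311, 0.570 and 1.18 CPM in F. Every M library was thus above every F library, and the 10.7-fold difference (log2 3.42 ± 0.22 SE, edgeR adjusted p = 1.36e-08) had the lowest p of all autosomal genes. C7, a complement protein of the membrane attack complex, had 10.6, 18.5 and 34.0 CPM (lowest, median and highest) in M and 1.58, 2.24 and 3.02 CPM in F. The groups did not overlap, although the M libraries were spread widely, and the log2 fold change was 3.14 ± 0.26 (edgeR adjusted p = 4.97e-07).

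Mgst1, a microsomal glutathione transferase that detoxifies lipid peroxides, had 56.1, 75.3 and 96.2 CPM in M and 21.4, 24.5 and 29.5 CPM in F (log2 1.63 ± 0.11, edgeR adjusted p = 4.1e-08). Slc30a2, a zinc transporter, had 7.47, 10.3 and 12.2 CPM in M and 2.82, 3.20 and 3.75 CPM in F (log2 1.66 ± 0.12, edgeR adjusted p = 1.17e-07). Cds1, which makes CDP-diacylglycerol for phosphatidylinositol synthesis, had 8.22, 10.8 and 14.3 CPM in M and 1.91, 2.96 and 3.58 CPM in F (log2 1.97 ± 0.16, edgeR adjusted p = 3.41e-07). In all of them each M library was above each F library. Cds1 overlaps predicted genes on its own strand in the annotation, so its reads may be shared with them.

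Potassium channels and a receptor follow. Kcnj3 encodes a subunit of the G-protein-gated inward rectifier, and had 2.73, 3.45 and 4.08 CPM in M against 0.276, 0.552 and 0.887 CPM in F (log2 2.64 ± 0.21, edgeR adjusted p = 2.23e-07). Kcng4, a modulatory subunit of voltage-gated potassium channels, had 5.50, 11.0 and 13.5 CPM in M against 1.17, 2.50 and 3.14 CPM in F (log2 2.08 ± 0.25, edgeR adjusted p = 8.6e-05). Mchr1, the receptor of melanin-concentrating hormone, had 5.90, 10.2 and 15.5 CPM in M against 1.00, 1.62 and 2.63 CPM in F (log2 2.63 ± 0.23, edgeR adjusted p = 1.46e-06). The groups of these genes did not overlap either. Slc15a5, Mgst1, Slc30a2, Kcnj3, Cds1, C7 and Mchr1 passed the test under each of the 32 other settings tried. Kcng4 had an edgeR adjusted p of 0.0959 in the fit over all groups. Without the libraries of other ages that go against their label, that fit gave Kcng4 an edgeR adjusted p of 0.00172.

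The remaining genes of the 8 largest rises among those averaging at least 1 CPM were more uneven. Hp, haptoglobin, a plasma protein that binds free haemoglobin, had 16.5, 23.9 and 166 CPM in M and 3.71, 8.85 and 16.0 CPM in F. The groups did not overlap, but the M libraries were spread widely (SD 52.5 CPM around a mean of 52.3), and the log2 fold change of 2.45 ± 0.55 (edgeR adjusted p = 0.0199) was no longer past the threshold without F replicate 4 (0.0536) or F replicate 6 (0.0505). Kcnj15, another inward rectifier, had 1.31, 1.68 and 11.7 CPM in M and 0.451, 0.734 and 1.38 CPM in F, with overlap between the groups (log2 2.11 ± 0.52, edgeR adjusted p = 0.0336). That call was lost when any 1 of 6 libraries was left out.

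**Figure D2:**
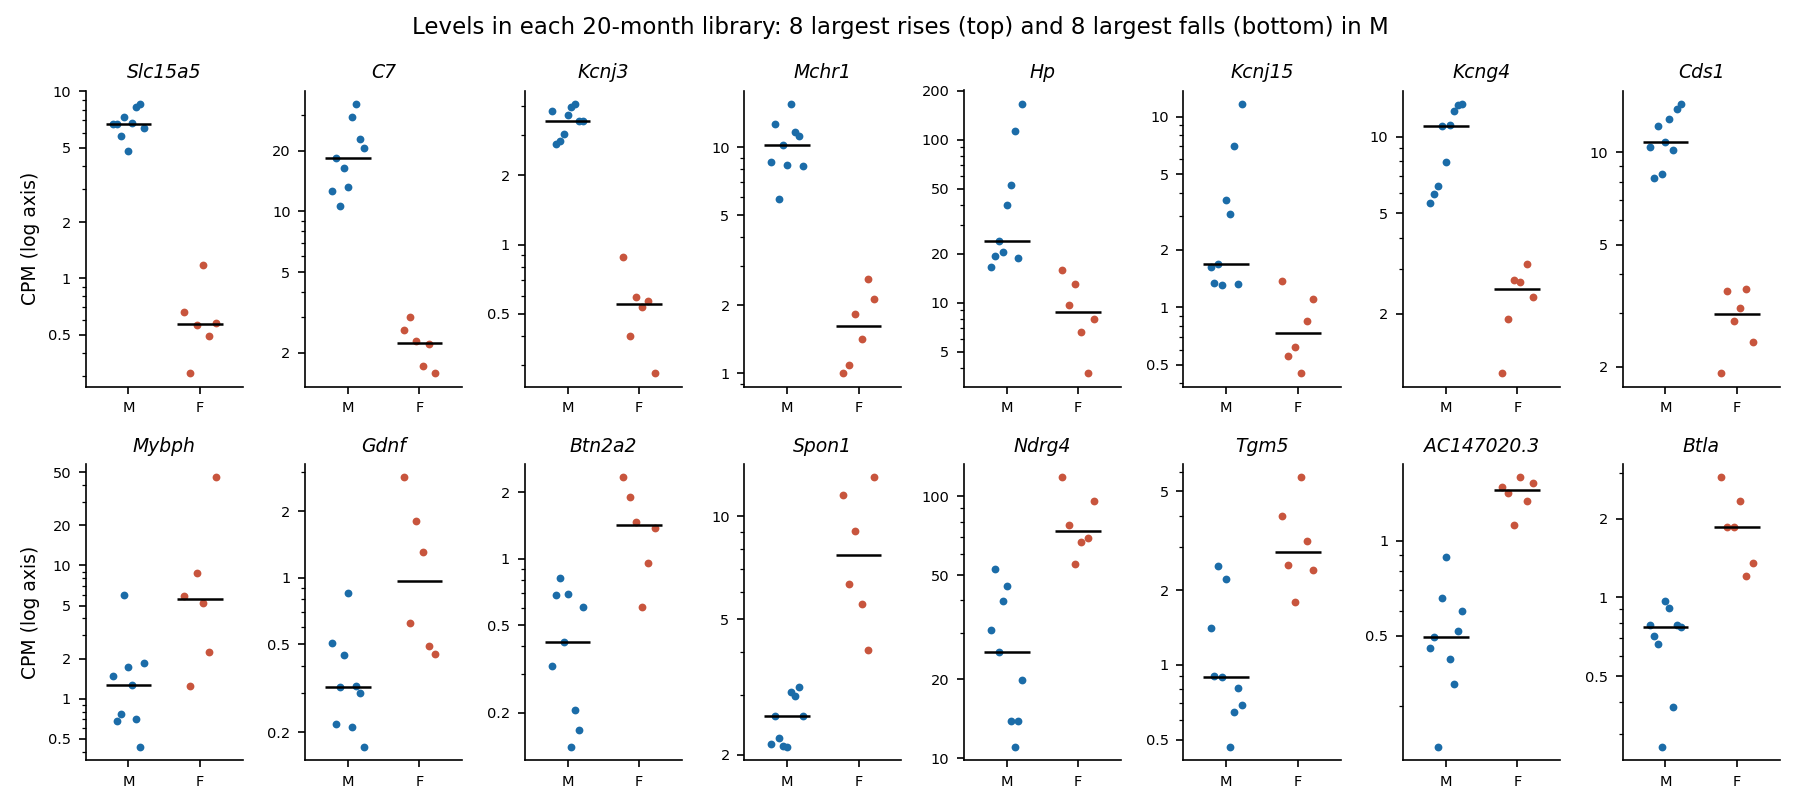
CPM (log axis) of the 8 autosomal genes with the largest rises (top row) and the 8 with the largest falls (bottom row) in M relative to F. Each point is 1 library, 9 M at the left and 6 F at the right of each panel, and the bar is the median. M and F separate for Slc15a5, C7, Kcnj3, Mchr1, Hp, Kcng4 and Cds1 in the top row, and for Spon1, Ndrg4, AC147020.3 and Btla in the bottom row.

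A matrix protein, an NDRG-family gene, a lymphocyte receptor and a non-coding RNA were among the 8 largest falls in M. Spon1, a secreted matrix protein, had 2.11, 2.61 and 3.17 CPM in M against 4.07, 7.71 and 13.0 CPM in F (log2 -1.69 ± 0.21, edgeR adjusted p = 9.12e-05). Its M libraries sat close together, below the lowest F library, while the F libraries were spread more widely. Ndrg4, an NDRG-family gene best known from heart and brain, had 11.1, 25.5 and 52.6 CPM in M against 54.8, 73.3 and 118 CPM in F (log2 -1.52 ± 0.29, edgeR adjusted p = 0.00742). Btla, an inhibitory receptor of lymphocytes, had 0.269, 0.773 and 0.967 CPM in M against 1.21, 1.86 and 2.88 CPM in F (log2 -1.45 ± 0.25, edgeR adjusted p = 0.0034). The long non-coding RNA AC147020.3 had 0.222, 0.496 and 0.888 CPM in M against 1.12, 1.45 and 1.59 CPM in F (log2 -1.46 ± 0.24, edgeR adjusted p = 0.00188). Ndrg4, Btla and AC147020.3 did not overlap between groups.

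Mybph, a myosin-binding protein, had the largest log2 fold change of the lower genes, -2.82 ± 0.66 (edgeR adjusted p = 0.0256). It had 0.435, 1.26 and 5.98 CPM in M and 1.24, 5.59 and 45.8 CPM in F, with overlap. Without F replicate 6, which held the 45.8 CPM, the value was -1.52 with an adjusted p of 0.16. Gdnf, a survival factor of motor neurons, Btn2a2, a butyrophilin, and Tgm5, a transglutaminase, were also lower in M (log2 -1.73, -1.69 and -1.47), with overlap between the groups in each.

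By p-value, the clearest falls were modest in size. Abhd18, of the alpha/beta-hydrolase domain family, had 23.1, 30.8 and 36.8 CPM in M against 50.02, 54.6 and 60.04 CPM in F (log2 -0.80 ± 0.08, edgeR adjusted p = 1.71e-05). Btbd8 had 8.35, 9.34 and 12.1 CPM in M against 14.7, 16.7 and 17.8 CPM in F (log2 -0.78 ± 0.08, edgeR adjusted p = 2.51e-05). Sesn1, a sestrin that restrains mTORC1, had 22.5, 26.5 and 34.8 CPM in M against 39.8, 42.7 and 52.6 CPM in F (log2 -0.65 ± 0.08, edgeR adjusted p = 0.000125). All M libraries were below all F libraries for these genes. In the fit over all groups, Abhd18 (edgeR adjusted p = 0.264), Spon1 (0.0854) and Sesn1 (0.414) missed the threshold. That fit keeps libraries of other ages whose sex-linked transcripts go against their letter. Without those libraries, the edgeR adjusted p-values were 0.0382, 0.0108 and 0.163.

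The promoter windows of the genes that led the rises by size or by p-value and of Btbd8, the fall with the second lowest p, are shown. They are RefSeq sequences of the mouse GRCm38.p6 assembly, from 250 bases before to 50 bases after the start that RefSeq gives, and read 5′ to 3′ on the gene's strand. Slc15a5 is at chr6:138079867-138080166 (minus strand), Mgst1 at chr6:138140277-138140576 (plus), Kcnj3 at chr2:55435720-55436019 (plus), C7 at chr15:5063724-5064023 (minus) and Btbd8 at chr5:107437680-107437979 (plus). The RefSeq start is the GENCODE start for Slc15a5 and Kcnj3, and lies 33 bases from it for C7, 67 for Btbd8 and 211 for Mgst1. For Abhd18, the fall with the lowest p, the RefSeq start lies 47289 bases from the GENCODE start, so its window is not shown. Capitals mark matches to TGTTCT, the half-site of androgen and glucocorticoid receptors, to AGGTCA, the half-site of oestrogen receptors, or to TTCNNNGAA, the STAT5 site, each searched on both strands.
Slc15a5: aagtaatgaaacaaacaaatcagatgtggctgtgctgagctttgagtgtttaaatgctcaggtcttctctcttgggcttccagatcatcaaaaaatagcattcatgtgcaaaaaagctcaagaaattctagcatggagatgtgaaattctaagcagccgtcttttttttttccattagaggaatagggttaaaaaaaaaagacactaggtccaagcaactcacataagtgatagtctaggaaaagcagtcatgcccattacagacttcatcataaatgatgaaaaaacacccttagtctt
Mgst1: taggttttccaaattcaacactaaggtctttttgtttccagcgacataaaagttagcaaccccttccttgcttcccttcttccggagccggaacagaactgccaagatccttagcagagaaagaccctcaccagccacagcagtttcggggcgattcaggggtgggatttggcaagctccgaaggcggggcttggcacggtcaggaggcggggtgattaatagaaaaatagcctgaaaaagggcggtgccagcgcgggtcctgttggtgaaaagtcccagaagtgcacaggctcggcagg
Kcnj3: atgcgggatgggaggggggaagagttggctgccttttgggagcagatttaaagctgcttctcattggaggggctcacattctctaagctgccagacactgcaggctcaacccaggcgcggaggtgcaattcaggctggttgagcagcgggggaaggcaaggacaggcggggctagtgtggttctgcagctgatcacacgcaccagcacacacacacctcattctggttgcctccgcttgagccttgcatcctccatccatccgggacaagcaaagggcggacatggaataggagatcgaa
C7: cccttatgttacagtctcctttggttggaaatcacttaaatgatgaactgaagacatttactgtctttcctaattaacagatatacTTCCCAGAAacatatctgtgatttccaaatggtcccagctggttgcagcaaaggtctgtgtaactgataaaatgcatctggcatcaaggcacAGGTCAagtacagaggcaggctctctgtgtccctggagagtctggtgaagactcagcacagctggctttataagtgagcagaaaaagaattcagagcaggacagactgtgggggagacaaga
Btbd8: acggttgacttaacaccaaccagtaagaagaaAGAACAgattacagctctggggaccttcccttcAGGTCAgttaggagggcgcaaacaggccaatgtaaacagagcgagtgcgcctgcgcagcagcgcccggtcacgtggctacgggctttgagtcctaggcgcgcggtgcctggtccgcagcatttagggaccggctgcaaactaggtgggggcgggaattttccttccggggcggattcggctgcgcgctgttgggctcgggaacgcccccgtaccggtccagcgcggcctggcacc

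C7 held 1 match to AGGTCA and 1 to TTCNNNGAA, which do not overlap, and Btbd8 held 1 match to AGGTCA and 1 to TGTTCT, read as AGAACA. The windows of Slc15a5, Mgst1 and Kcnj3 held none of these letters. Among the 10764 autosomal genes tested that had a promoter in the table, 11.9% held TGTTCT, 12.1% AGGTCA and 6.6% TTCNNNGAA on either strand. Promoters were at hand for 77.9% of the genes higher in M and 68.8% of those lower in M, under the 80% needed, so a comparison of match shares between these groups is void.

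Several further genes that stand out by p-value were picked after their values were seen. Slc40a1, ferroportin, the exporter of cellular iron, had 16.1, 19.2 and 24.0 CPM in M against 7.64, 8.74 and 11.5 CPM in F (log2 1.09 ± 0.11, edgeR adjusted p = 7.09e-06). Lifr, the receptor of leukaemia inhibitory factor, had 63.9, 69.4 and 87.3 CPM in M against 41.4, 47.9 and 55.3 CPM in F (log2 0.58 ± 0.08, edgeR adjusted p = 0.000355). Cyp27a1, the mitochondrial sterol 27-hydroxylase, had 14.4, 20.7 and 24.1 CPM in M against 9.49, 11.3 and 13.8 CPM in F (log2 0.78 ± 0.13, edgeR adjusted p = 0.00188). These groups did not overlap.

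Ryr2, the cardiac-type calcium release channel, was also higher in M, with overlap (log2 1.92 ± 0.31, edgeR adjusted p = 0.00157). Penk, the precursor of enkephalin, had a log2 value of 1.14 (0.000363) and Prkd1, a protein kinase D, of 1.04 (9.63e-05), both with every M library above every F library. Amy1, an amylase gene with close copies whose reads the counting may have split, had a log2 value of 0.78 (2.52e-05). Akr1c14, a hydroxysteroid dehydrogenase that inactivates dihydrotestosterone in rodents and belongs to a family of near copies, went the other way, at 2.35, 3.04 and 4.20 CPM in M against 5.28, 6.21 and 8.75 CPM in F (log2 -1.06 ± 0.14, edgeR adjusted p = 0.000154).

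Some of the called genes are neighbours. Slc15a5 (chr6:137983586-138079916, minus strand) and Mgst1 (chr6:138140316-138156755, plus strand) lie 60.4 kb apart on mm10, with their starts facing each other, and neither overlaps another gene. On chromosome 15, Mchr1 was joined by 8430426J06Rik (log2 2.09) and by Slc25a17, both within 100 kb and higher in M. On chromosome 1, Mybph, Myog and Ppfia4 were all lower in M. In all, 37 pairs of called genes lay within 100 kb of each other, 29 of them changed in the same direction, and 15.5% of called genes had a called neighbour, against 10% of all autosomal genes tested. These pairs were singled out after their values were seen. Some of the 37 pairs overlap each other in the annotation, among them Acsf2 with Chad and Tmem205 with Ccdc159, so their reads may be shared.

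Contractile genes differed by fibre type. Of 15 slow-fibre genes, 9 were lower in M and none higher, against 1.31% lower over all autosomal genes tested. The list's median log2 fold change was -0.621, against 0.00485 over all autosomal genes tested. Its summed level was 25520, 29220 and 44220 CPM (lowest, median, highest) in M and 42690, 48930 and 57160 CPM in F. Only M replicate 5, at 44220 CPM, reached into the F range. In bulk tissue, fewer slow fibres and less slow-fibre RNA per fibre cannot be told apart.

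Myl6b, a myosin light chain of slow muscle, had 17.7, 30.9 and 61.9 CPM in M against 68.3, 85.2 and 122.7 CPM in F (log2 -1.28 ± 0.22, edgeR adjusted p = 0.00331). Tnnt1, slow troponin T, had 1887, 2519 and 3425 CPM in M against 3840, 4140 and 4517 CPM in F (log2 -0.65 ± 0.12, edgeR adjusted p = 0.00552). Both showed no overlap. Myh7, the slow myosin heavy chain, had 5941, 8096 and 14679 CPM in M against 12269, 15590 and 18969 CPM in F, with overlap (log2 -0.77 ± 0.17, edgeR adjusted p = 0.0205), and its call was lost without F replicate 1 (0.0553) or F replicate 3 (0.0537). Slow troponin C (Tnnc1, log2 -0.77), slow troponin I (Tnni1, -0.84), the regulatory light chain Myl2 (-0.62), the slow tropomyosin Tpm3 (-0.59), the cardiac-type calsequestrin Casq2 and Myh7b were lower in M as well. Sarcolipin (Sln), which uncouples the calcium pump, had a log2 fold change of -1.03 with an adjusted p of 0.0502, and phospholamban (Pln) had the list's only positive value.

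Of 20 fast-fibre genes, 4 were higher in M and none lower, against 1.51% higher over all autosomal genes tested. The list's median log2 fold change was 0.158. The genes called were fast troponin I (Tnni2, log2 0.62 ± 0.11, edgeR adjusted p = 0.00473), the tropomyosin Tpm1 (0.59 ± 0.11, 0.00519), fast troponin T (Tnnt3, 0.55 ± 0.11, 0.00688) and fast troponin C (Tnnc2, 0.55 ± 0.12, 0.018). Tnni2 had 1700, 2587 and 3078 CPM in M against 1245, 1691 and 1820 CPM in F, and Tnnt3 had 4114, 6077 and 6802 CPM in M against 3001, 4112 and 4730 CPM in F. The groups overlapped for all 4. M replicate 5, the M library richest in slow-fibre RNA, was the lowest M library for Tnnt3.

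Sox6, a transcription factor that represses slow-fibre genes in mouse muscle, is in neither list and was picked after its values were seen. It had 56.6, 68.9 and 78.8 CPM in M against 42.6, 46.8 and 53.1 CPM in F, without overlap (log2 0.46 ± 0.08, edgeR adjusted p = 0.00218). Myoz3, a calsarcin of fast fibres, likewise had 120.4, 126.4 and 208.4 CPM in M against 73.8, 84.3 and 102.6 CPM in F (log2 0.73 ± 0.12, edgeR adjusted p = 0.00191).

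The fast myosin heavy chains did not pass the test. Myh2 (type IIa) averaged 9132 ± 1389 CPM in M and 7314 ± 1190 CPM in F (SD, n = 9 and 6; edgeR adjusted p = 0.157). Myh1 (type IIx) averaged 3449 ± 1844 CPM in M and 1695 ± 377 CPM in F (edgeR adjusted p = 0.0894). Myh4 (type IIb), which is scarce in a clean soleus, ran between 12.6 and 2981 CPM in M and between 14.7 and 3175 CPM in F, so both sexes held libraries with little and with much of it (log2 -0.36 ± 1.18, edgeR adjusted p = 0.936).

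**Figure D3:**
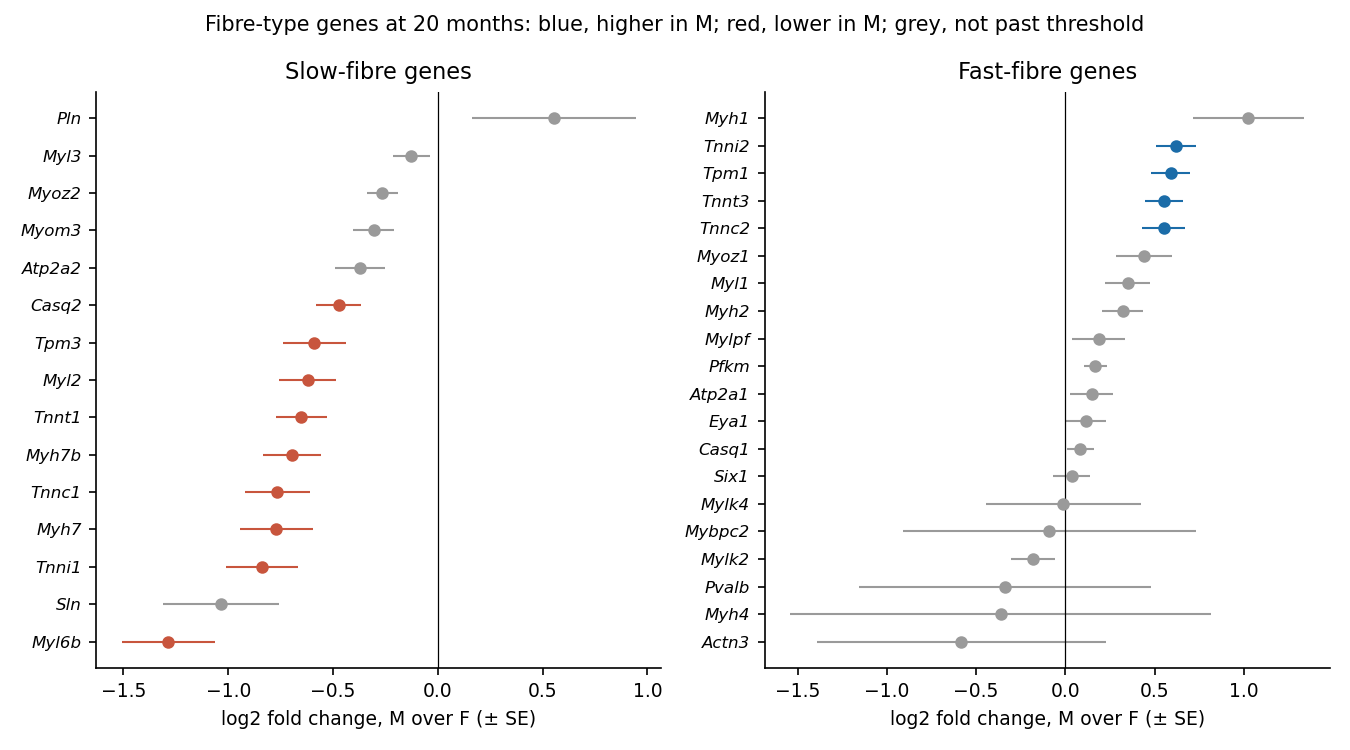
Log2 fold change of M over F, with its SE as a line, for the 15 slow-fibre genes (left) and the 20 fast-fibre genes (right) at 20 months. Red genes were lower in M, blue genes higher in M and grey genes not past the edgeR threshold, and 9 slow-fibre genes are red and 4 fast-fibre genes blue, while Myh4 has an SE of 1.18.

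Most genes of energy metabolism had small positive log2 fold changes, and few passed the test. Of 72 nuclear-encoded subunits of oxidative phosphorylation, 1 was called higher in M, against 1.51% of all autosomal genes tested. The median log2 fold change of the list was 0.13, and 71 of its genes had a positive value, against 7562 of all 14692. Of the 15 genes of the mitochondrial genome tested, 7 were higher in M and none lower, among them mt-Nd5 (log2 0.28, edgeR adjusted p = 0.0078) and mt-Co1 (0.28, 0.0158), which moved with the larger share of mitochondrial counts in M. Of the 25 genes of the tricarboxylic acid cycle and pyruvate entry, 3 were higher in M, the dehydrogenase genes Idh3a (log2 0.32) and Mdh2 (0.27) and the pyruvate dehydrogenase component Pdhx (0.25), none was lower, and the list's median was 0.154. Glycolysis and glycogen genes had a median of 0.133 with 0 of 32 called.

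Some genes of fat handling were higher in M. In the fatty acid uptake and oxidation list, 3 of 34 genes were higher in M and none lower (median 0.107). The share higher in M was 1.51% over all autosomal genes tested. Acsl6, an acyl-CoA synthetase, had 17.65, 20.7 and 24.0 CPM in M against 14.0, 14.7 and 17.60 CPM in F (log2 0.46 ± 0.08, edgeR adjusted p = 0.00191), and Hadh, a beta-oxidation dehydrogenase, had 313, 337 and 402 CPM in M against 213, 260 and 311 CPM in F (log2 0.42 ± 0.08, edgeR adjusted p = 0.00491). Each M library was above each F library for both, by a narrow margin. Etfdh, which passes electrons from beta-oxidation to ubiquinone, was the third (log2 0.20).

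Of 29 lipid droplet and triglyceride genes, 4 were higher in M and none lower (median 0.182), against 1.51% higher over all autosomal genes tested. Plin3, a droplet coat protein, had 36.2, 45.01 and 61.7 CPM in M against 28.6, 31.9 and 34.6 CPM in F (log2 0.62 ± 0.11, edgeR adjusted p = 0.0034). Srebf1, the transcription factor of lipid synthesis, had 23.8, 27.7 and 42.3 CPM in M against 17.2, 19.6 and 22.4 CPM in F (log2 0.59 ± 0.11, edgeR adjusted p = 0.00595). Neither overlapped between groups. Dgat2, the last enzyme of triglyceride synthesis, and Abhd5, a coactivator of triglyceride lipase, were higher by 0.32 and 0.17 on the log2 scale. The Srebf1 targets Fasn (log2 1.09, edgeR adjusted p = 0.0619) and Scd1 (0.85, 0.235) did not pass the test. The 18 adipocyte markers summed to 3025 to 4815 CPM in M and 3863 to 5418 CPM in F, and none of the 17 tested passed; their median log2 fold change, 0.33, was opposite in sign to the sums.

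Many tendon genes and some collagens were lower in M. Of 12 tendon and cartilage-like genes, 8 were lower and none higher, against 1.31% lower over all autosomal genes tested. The list's median log2 fold change was -0.655. The list holds 14 genes, 13 of them autosomal, and the summed level of all 14 was 421.6, 593.6 and 863.5 CPM in M and 817.4, 938.5 and 1100 CPM in F, and M replicate 6 was the only M library within the F range. Scx, the transcription factor that marks tendon cells, had 4.82, 8.47 and 11.0 CPM in M against 11.8, 12.3 and 17.1 CPM in F, without overlap (log2 -0.66 ± 0.14, edgeR adjusted p = 0.0114). Cilp2, a cartilage matrix protein (log2 -1.13 ± 0.19, edgeR adjusted p = 0.00282), and thrombospondin 4 (Thbs4, -0.68 ± 0.13, 0.00525) were lower in M with overlap, as were Chad (-0.85), Comp (-0.72) and Fmod (-0.59), all of them matrix proteins of tendon or cartilage. The part of tendon tissue in the muscle samples was not tested.

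Among 32 collagen and matrix genes, 4 were lower in M and none higher (median -0.199), against 1.31% lower over all autosomal genes tested. Periostin (Postn) had 12.9, 26.9 and 45.2 CPM in M against 40.9, 48.8 and 55.5 CPM in F (log2 -0.85 ± 0.18, edgeR adjusted p = 0.0166). The chains of type I collagen, Col1a1 (-0.82 ± 0.19, 0.0221) and Col1a2 (-0.67 ± 0.16, 0.027), were lower in M with overlap, as was Col16a1 (-0.70). The part of the lower tendon markers in these values was not tested. Other matrix genes outside these lists, picked after their values were seen, were also lower in M without overlap. Mgp, the matrix Gla protein that restrains calcification, had 42.2, 57.98 and 70.5 CPM in M against 73.0, 83.6 and 93.6 CPM in F (log2 -0.56 ± 0.09, edgeR adjusted p = 0.00234), and the collagen lysyl hydroxylase Plod2 had a log2 value of -0.68 (0.00125). None of 11 fibro-adipogenic progenitor markers and none of 17 endothelial markers passed the test.

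A few chaperones of the endoplasmic reticulum were lower in M. In the unfolded protein response list 4 of 28 genes were lower and none higher (median -0.194), against 1.31% lower over all autosomal genes tested. Calreticulin (Calr), which folds glycoproteins, had 113.3, 126.2 and 136.8 CPM in M against 142, 156 and 163 CPM in F (log2 -0.29 ± 0.05, edgeR adjusted p = 0.00432), and Pdia6, a disulfide isomerase, had 37.7, 49.2 and 53.8 CPM in M against 55.3, 58.2 and 62.9 CPM in F (-0.32 ± 0.07, 0.0185). Neither overlapped. Hsp90b1 (-0.27) and Hyou1 (-0.25) were lower with overlap. Of 27 cytosolic and other heat shock genes, Hspa1l (-0.37) and the co-chaperone Stip1 (-0.20) were lower in M. Dnajb1, an inducible co-chaperone of Hsp70, was higher in M (0.60 ± 0.13, edgeR adjusted p = 0.0153). In this list 21 genes had a negative log2 fold change (median -0.141), against 7130 of all 14692 autosomal genes tested. Its summed level was 10670, 12420 and 13460 CPM in M and 13610, 14140 and 15810 CPM in F, without overlap.

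Growth and atrophy regulators gave a few single genes rather than whole lists. Grb14, an adaptor that inhibits the insulin receptor, had 45.7, 57.2 and 64.0 CPM in M against 24.7, 31.4 and 38.9 CPM in F, without overlap (log2 0.81 ± 0.10, edgeR adjusted p = 0.000125). Its relative Grb10 went the other way, at 59.8, 69.8 and 102 CPM in M against 88.2, 103 and 112 CPM in F (-0.45 ± 0.10, edgeR adjusted p = 0.0178). They were the only ones called of 25 IGF and insulin signalling genes, against 2.82% called of all autosomal genes tested. Igf1 itself averaged 15.5 ± 4.33 CPM in M and 16.1 ± 3.61 CPM in F (SD, edgeR adjusted p = 0.934).

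Of 29 atrophy and FoxO genes, 3 were lower in M and none higher (median -0.0197), against 1.31% lower over all autosomal genes tested. Besides Sesn1 they were Cdkn1a, the cell cycle inhibitor p21, with 14.3, 17.6 and 19.8 CPM in M against 20.96, 27.4 and 31.3 CPM in F (log2 -0.63 ± 0.09, edgeR adjusted p = 0.000496), and Foxo3 (-0.35 ± 0.09, 0.0397). Cdkn1a did not overlap between groups and Foxo3 did. Myostatin (Mstn), the inhibitor of muscle growth, had 0.702 to 7.25 CPM in M and 0.909 to 9.61 CPM in F (log2 -0.19 ± 0.56, edgeR adjusted p = 0.93), and the libraries of each sex were spread widely.

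Denervation and neuromuscular junction genes had 3 of 26 lower in M and none higher (median -0.127). Of all autosomal genes tested, 1.31% were lower and 1.51% higher in M. Chrnb1, the beta subunit of the muscle acetylcholine receptor, had 13.8, 17.2 and 18.96 CPM in M against 20.8, 22.6 and 28.5 CPM in F, without overlap (log2 -0.44 ± 0.08, edgeR adjusted p = 0.00595). Myogenin (Myog), which drives receptor genes in denervated fibres, had 2.26, 3.76 and 4.75 CPM in M against 4.28, 6.47 and 8.78 CPM in F (-0.89 ± 0.18, 0.00839), and Ncam1, an adhesion molecule of denervated fibres and satellite cells, was lower by a log2 value of -0.58 (0.0494). The Schwann cell list had 1 of 11 genes higher in M, Cadm4 (0.67 ± 0.16, edgeR adjusted p = 0.0229), and the summed level of all 12 genes of the list, 1 of them not autosomal, was 124.6 to 336.9 CPM in M and 119 to 271 CPM in F.

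Few genes of the hormone pathways themselves passed the test, which 2.82% of all autosomal genes tested did. The growth hormone receptor gene Ghr had 138, 155 and 191 CPM in M against 116.2, 123.4 and 135.7 CPM in F, without overlap (log2 0.35 ± 0.07, edgeR adjusted p = 0.00839), and was the only one called of 17 growth hormone and STAT5 genes. The STAT5 target Cish had 2.25, 3.76 and 15.2 CPM in M against 1.08, 2.08 and 4.77 CPM in F (log2 1.29 ± 0.42, edgeR adjusted p = 0.112), and Socs2 had a log2 value of -0.30 (0.253). Of 21 sex steroid receptors, coregulators and enzymes, Hsd11b1, which regenerates active glucocorticoid, was higher in M (0.46 ± 0.12, edgeR adjusted p = 0.0434) and none was lower. The oestrogen receptor gene Esr1 averaged 13.3 ± 2.21 CPM in M and 14.7 ± 1.65 CPM in F (adjusted p = 0.608), and the glucocorticoid target Fkbp5 31.5 ± 8.64 CPM in M and 36.7 ± 14.0 CPM in F (0.715).

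Polyamine genes, several of which respond to androgen in other tissues, had 0 of 11 called (median 0.0184). Ornithine decarboxylase (Odc1) had a log2 fold change of -0.10 ± 0.11 (edgeR adjusted p = 0.739), Amd1 of 0.40 ± 0.13 (0.125) and spermine oxidase (Smox) of 0.20 ± 0.16 (0.622). Of 20 replication and mitosis genes, the helicase subunit Mcm6 (-0.45 ± 0.08, 0.00455) and the spindle motor Kif11 (-0.85 ± 0.19, 0.0219) were lower in M. Of 39 interferon response and antigen presentation genes, Ifit3 was lower in M (-0.79 ± 0.19, edgeR adjusted p = 0.0323), and 31 had a negative log2 fold change (median -0.197). Of 13 macrophage markers, Lyve1, carried by resident macrophages and lymphatic vessels, was lower (-0.51 ± 0.13, 0.0375). Over all 14692 autosomal genes tested, 1.31% were lower in M and 7130 had a negative log2 fold change.

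No endothelial, smooth muscle, satellite cell or red blood cell marker passed the test. The summed endothelial markers were 1085, 1199 and 1386 CPM in M and 1069, 1162 and 1267 CPM in F, those of smooth muscle and pericytes 4216, 4357 and 4922 CPM in M and 4395, 4660 and 4832 CPM in F, over 17 and 13 genes; the median log2 fold change of the smooth muscle list was 0.115, opposite in sign to its summed level. Satellite cell markers summed to 243.4, 282.6 and 312 CPM in M and 288.4, 309.9 and 340.9 CPM in F, with 10 of 11 genes negative and none called. The summed level of 8 red blood cell genes ranged widely, from 37.08 to 272.4 CPM in M and from 31.81 to 420.1 CPM in F. The 12 keratinocyte markers summed to 12.2, 12.97 and 61.96 CPM in M and 12.03, 14.21 and 15.78 CPM in F. None of the 6 keratinocyte markers tested passed. No gene of T and NK cells passed the filter on low values.

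**Figure D4:**
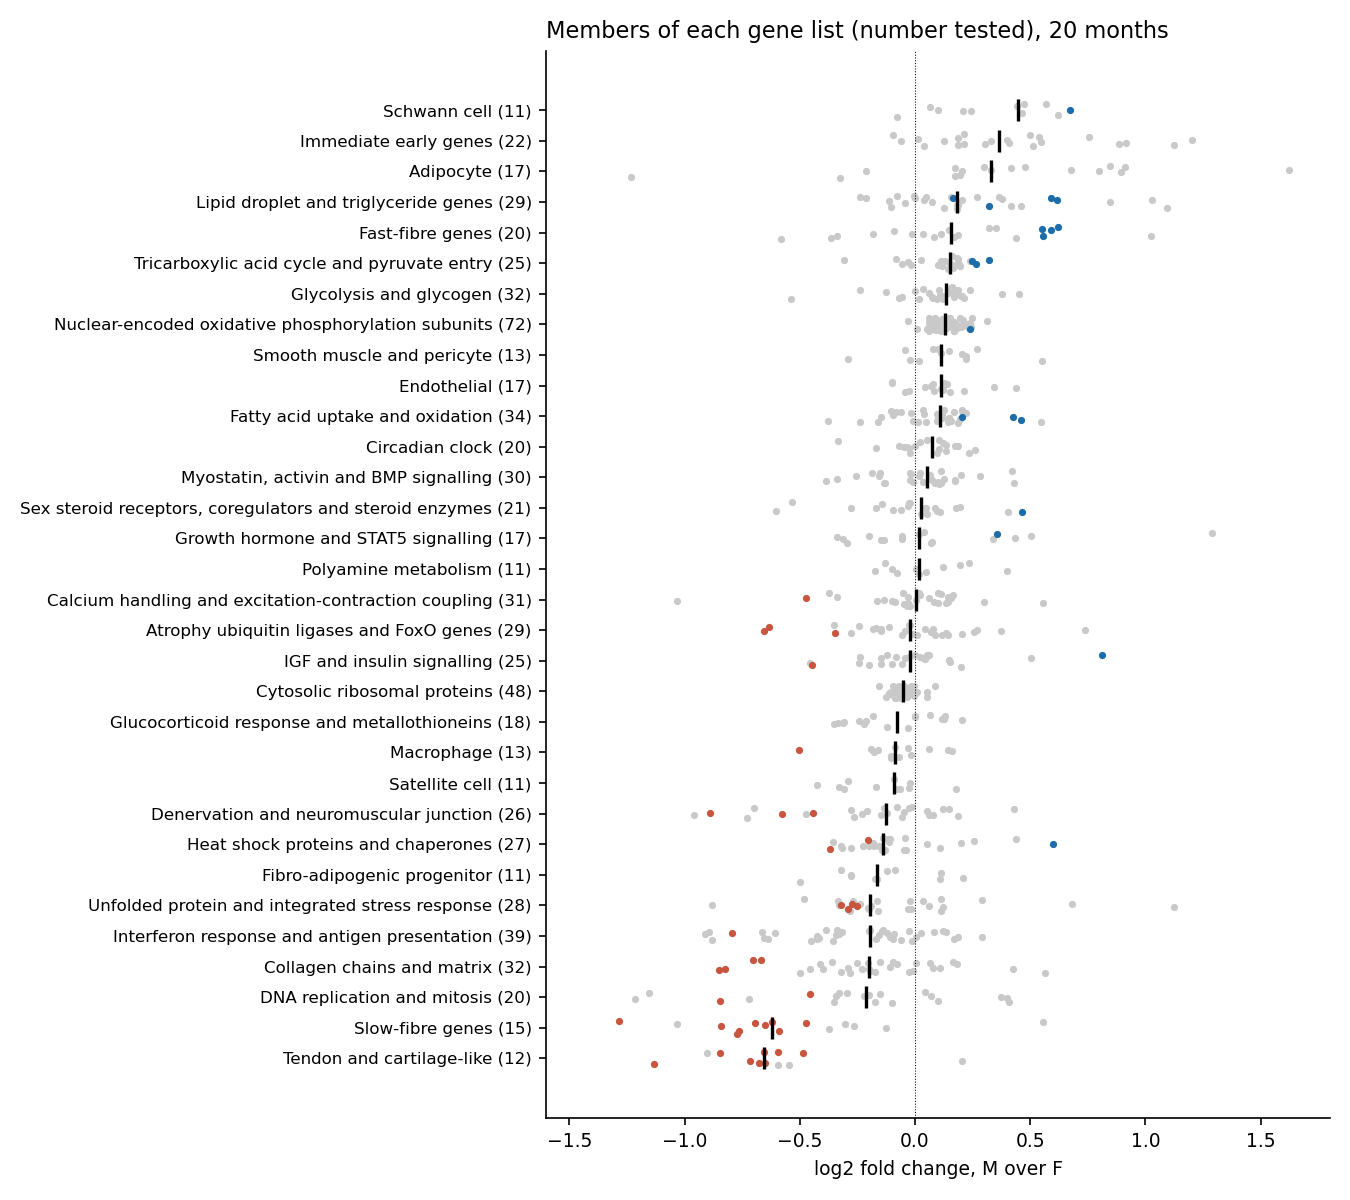
Log2 fold change of M over F (horizontal axis) for the genes of each list with 10 or more genes tested (rows, the number tested in brackets), 1 point a gene, with the list's median as a bar. Blue points were higher and red points lower in M at an edgeR adjusted p under 0.05, and the slow-fibre genes (median -0.621) and the tendon and cartilage-like genes (median -0.655) are the rows with the lowest medians.

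Sex differences in other control mice of the series were set beside those at 20 months, from libraries that the 20-month test did not use. The fit that gave them also held the 28-month M mice of batch 2 given CaAKG. Libraries whose sex-linked transcripts go against their letter were left out, which leaves 5 M and 3 F at 6 months, 5 and 4 at 12 months (F replicates 6 and 7, whose library names share an animal tag, were summed and count as 1), 5 and 6 at 28 months in batch 1, and 10 and 7 at 28 months in batch 2. Of the 222 genes higher in M at 20 months, 90.5% had a positive log2 fold change at 6 months, 85.6% at 12 months, 87.4% at 28 months in batch 1 and 93.2% in batch 2. Of the 192 lower genes, 78.6% were negative at 6 months, 87.5% at 12 months, 77.1% at 28 months in batch 1 and 93.8% in batch 2. Over all autosomal genes tested, the sign was shared by 57.2, 57.7, 58.2 and 61.8% in the same order.

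Some of these genes also passed the test in those groups. Of the 222 higher genes, 22, 25, 75 and 70 were also called higher at 6 months, 12 months, 28 months batch 1 and 28 months batch 2, and of the 192 lower genes 8, 16, 26 and 37 were also called lower. One gene was called in the opposite direction, at 6 months. In these mice 0.619, 0.79, 7.58 and 1.98% of autosomal genes were called in all. With every labelled library kept, the shares were 0% at 6 months, 0.0349% (6 genes) at 12 months, and 5.66 and 1.19% in batches 1 and 2 at 28 months.

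Slc15a5, C7, Mgst1 and Slc30a2 were called in each of the other groups. Slc15a5 had log2 fold changes of 3.83 at 6 months, 3.42 at 12 months, 3.01 at 28 months in batch 1 and 3.83 in batch 2, with edgeR adjusted p-values of at most 1.41e-08. C7 had 2.96, 3.13, 2.99 and 3.14 in the same order, with adjusted p-values between 3.51e-08 and 0.011. Mgst1 had 1.40, 1.59, 1.39 and 1.47, with adjusted p-values of at most 4.79e-05. Slc30a2 had smaller values there (1.53, 1.36, 1.24 and 0.84). Kcnj3 was called at 12 months and in both 28-month batches (2.55, 3.37 and 2.54) but had 0.94 at 6 months (edgeR adjusted p = 0.664). Cds1 was called in batch 2 at 28 months alone (2.09, 6.2e-05). Its value was 1.86 at 6 months (edgeR adjusted p = 0.0768) and 0.75 in batch 1 at 28 months (0.23). In that batch the F libraries ran from 2.24 to 26.6 CPM of Cds1. Kcng4 was 2.97 and 3.08 at 6 and 12 months (adjusted p = 0.00503 and 0.000294) and 0.65 and 0.64 at 28 months in batches 1 and 2 (0.383 and 0.381). Hp was 2.41, 0.42, 0.24 and 0.59, called in none.

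Among the lower genes, Spon1 was called in both batches at 28 months (log2 -1.72 and -1.51, edgeR adjusted p = 0.0176 and 0.0107). Abhd18 was called at 6 months (-1.06, edgeR adjusted p = 0.045) but not in batch 1 at 28 months (-0.21, 0.653). Cdkn1a was called at 12 months (-1.67, 0.0385) and in batch 2 at 28 months (-1.42, 0.00444). Calr was called at 12 months (-0.53, 0.0179) and in both 28-month batches (-0.52, 0.00366, and -0.34, 0.0276), with a log2 value of 0.12 at 6 months (0.805). Hadh was called higher in both 28-month batches (0.84, 3.2e-05, and 0.58, 0.00088). Myh7 had values of -1.03, -0.97, -0.36 and -0.50, none called, and Tnnt1 -0.51, -0.46, -0.15 and -0.31, none called. Scx was 0.22, -0.54, -0.02 and -0.26, none called.

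Whether the sex difference at 20 months itself differs from that at another age was tested as an interaction with all labelled libraries in the fit. edgeR called 0 of 17187 autosomal genes against 28 months in batch 1, with 1742 at an unadjusted p under 0.05, and 0 against 28 months in batch 2 (527 unadjusted), 12 months (1078) and 6 months (796). DESeq2 called 49 against 28 months in batch 1. Without the libraries that go against their label, an alternative added after seeing the data, edgeR again called 0 of 17602 in each of the 4 comparisons, with 2124, 681, 1297 and 1049 at an unadjusted p under 0.05 in the same order. For the 6- and 12-month mice, age and supplier cannot be told apart.

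**Figure D5:**
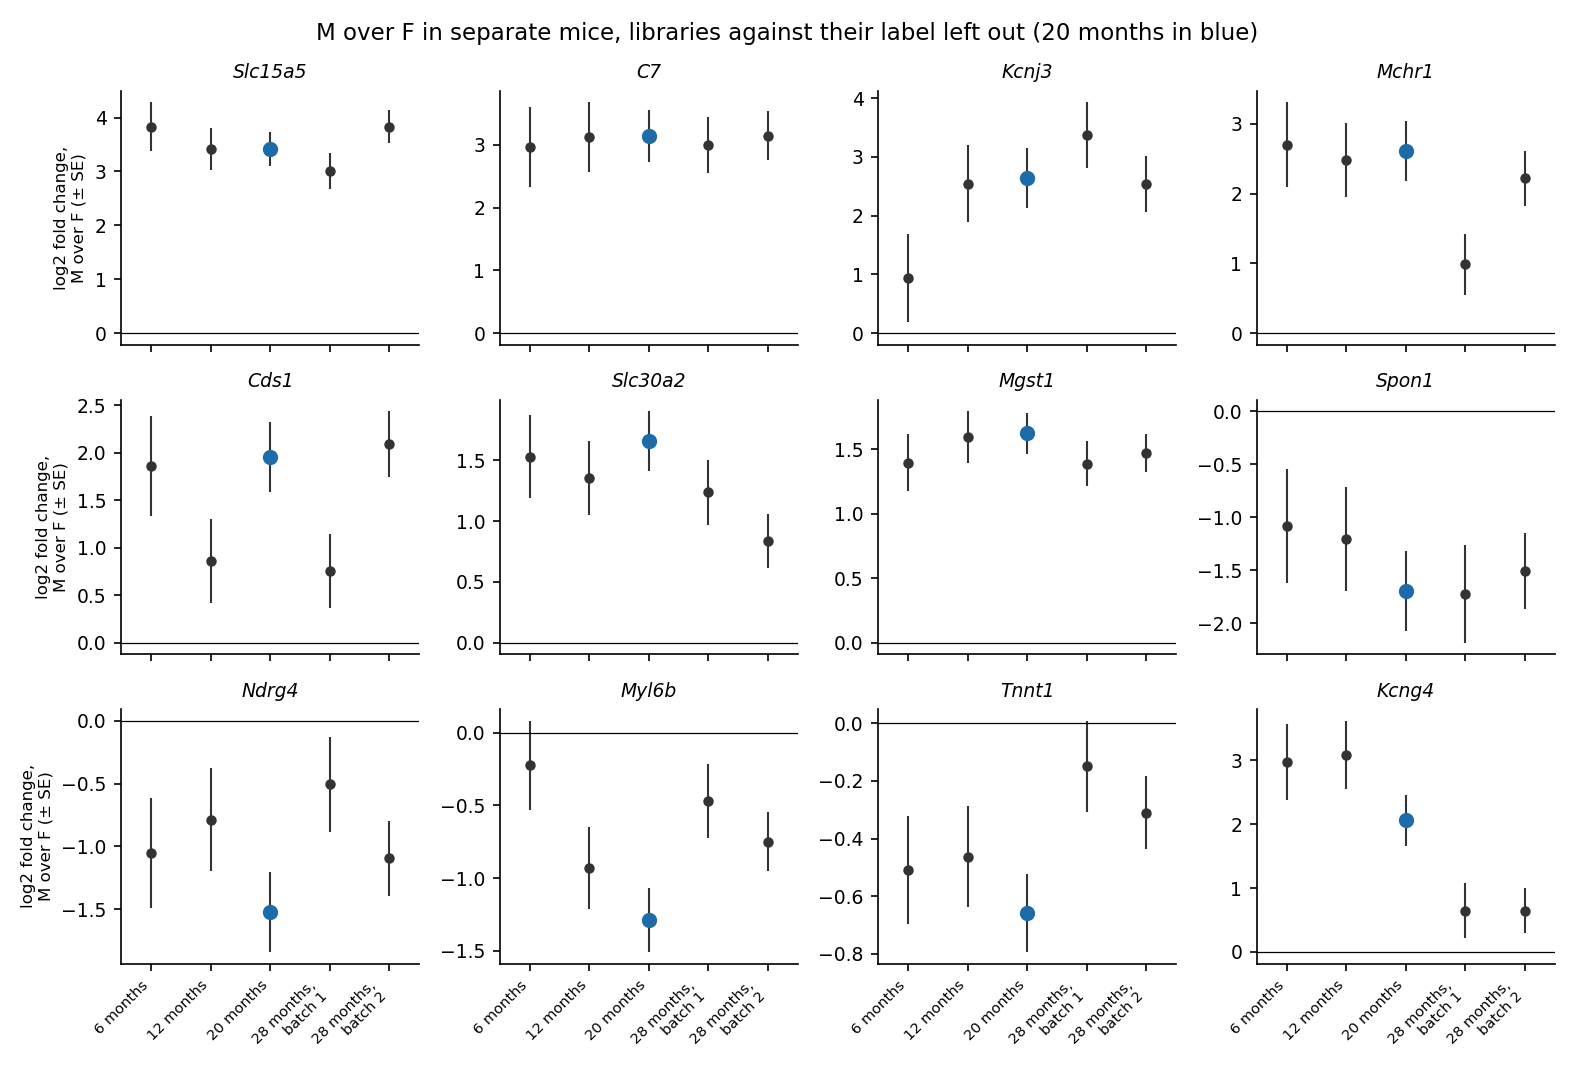
Log2 fold change of M over F with its SE (vertical axis) for 12 genes in control mice of 6, 12 and 20 months and of 28 months in batches 1 and 2 (horizontal axis), from a model of all groups without the libraries that go against their label. The blue point is 20 months; Slc15a5 lay between 3.01 and 3.83 in the other mice, while Kcng4 was 2.97 and 3.08 at 6 and 12 months and 0.65 and 0.64 at 28 months.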

How the data were processed

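Soleus RNA was sequenced as paired-end 150-base reads on an Illumina NovaSeq, per the labels' protocols. STAR 2.7.11b, RSEM 1.3.3, FastQC and mm10 are named in the submitters' processing notes. The deposited values are the authors' estimated counts per gene, of which 8.99% were not whole (tolerance 1e-06) and were rounded. No source at hand names the annotation or strand setting (not given in the sources used here), so reads of overlapping or antisense genes cannot be told apart. Of the 414 called genes 195 overlap another annotated gene, among them Cds1, Kcnj15, Abhd18, Btbd8, Sesn1, Mybph, Tgm5, Myh7, Myh7b, Casq2, Tnnc1, Myl2, Tnnt3, Tnnc2, Sox6, Ryr2, Penk, Acsl6, Etfdh, Srebf1, Abhd5, Scx, Chad, Col1a2, Plod2, Pdia6, Hsp90b1, Hspa1l, Cdkn1a, Ncam1, Hsd11b1 and Kif11. Columns of 55 other libraries were not used. Positions came from GENCODE M21 (35338 of 36904 IDs; the rest held 0.881% of counts) and promoters from RefSeq.

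Depth was 32520143 to 61465693 counts per library. The 9 M and 6 F libraries were fitted alone, after a filter on low counts (minimum count 10, total 15), with TMM scaling and the quasi-likelihood test of edgeR 4.0.16 in R 4.3.3 (15477 genes tested, 13 residual degrees of freedom, Benjamini-Hochberg over all of them). Other ages were fitted in a model of all 11 groups. No pair of libraries was a duplicate. The method was tested on simulated data. Genes were named by rule: with a mean of at least 1 CPM, the 8 largest rises and falls, the 4 lowest p each way, up to 3 genes of each list described, and 13 fixed genes. Results for some genes are not reported here. Members and lists were chosen with earlier results of these data known. Alternatives were DESeq2 1.42.0, limma 3.58.1 (voom), other scaling and filters, a replicate block, covariates and each library left out. No pairing of the libraries by replicate number was seen.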

Additional observations from a re-analysis of the deposited data

Results flagged for a closer look

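In 176 tests of a group of libraries for 1 far from the rest (Dixon's criterion at 95%, which chance alone meets in about 1 group in 20), 12 values were flagged, each in 1 library for 1 gene. All levels are CPM at 20 months.

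Among M libraries, replicate 5 was low for the fast troponin gene Tnnt3, at 4114 against 5491 to 6802 in the other M libraries, and high for Gdnf (0.8486 against 0.1718 to 0.5062) and for the mitotic gene Top2a (0.6513 against 0.1494 to 0.3818). M replicate 4, which had the fewest genes detected, was high for Mybph, at 5.975 against 0.4354 to 1.861. M replicate 2 was high for the interferon-induced gene Ifi44, at 1.458 against 0.3436 to 0.8289.

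Among F libraries, replicate 1 was high for the myelin gene Mbp (65.33 against 21.55 to 30.92) and for Cadm4 (10.6 against 5.966 to 6.619), both Schwann cell markers. F replicate 3 was high for the acetylcholine receptor gene Chrnb1 (28.5 against 20.77 to 23.33) and for Cish (4.774 against 1.084 to 2.209). F replicate 4 was high for the type IIb myosin gene Myh4, at 3175 against 14.74 to 1066. F replicate 5 was high for Scx, at 17.12 against 11.8 to 13.31, and F replicate 6 for Mybph, at 45.82 against 1.242 to 8.762. Whether anything beyond chance set these libraries apart was not tested.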

How the results depend on the processing

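Against 414 calls (222 higher and 192 lower in M), DESeq2 gave 750 (408 and 342), limma-voom with quality weights 660 (lower 335), the test against a fold of 1.2 gave 70 (42 and 28), and the fit over all groups 30 (20 and 10). With the mean of the endothelial list as covariate there were 238 (128 and 110), of the slow-fibre list 89 (40 and 49), and of the tendon list 126 (61 and 65), the last 2 chosen after seeing the data. The summed slow-fibre and tendon levels nearly separate M from F, so these 2 fits also take up the sex difference, and a call or sign that changed in them does not show a dependence on fibre or tendon content. The same-numbered libraries had correlations of -0.137 to 0.00614 and no F library correlated best with the M library of its number. No pairing by number was seen in these 6 correlations, which are too few to exclude a weak shared effect. With the replicate block, 65 genes were called (39 and 26), 61 of them among the 414. Leaving out 1 library at a time gave 241 to 507 calls (126 to 256 higher, 115 to 251 lower), the lowest without F replicate 3 and the highest without M replicate 5; without F replicate 2, 4 or 6 there were 275, 265 and 274. Of 64 named genes called, 7 passed under each of the 32 alternatives and 41 without each single library. The comparison of 20 months with batch 1 of 28 months gave 0 calls with edgeR, also without the libraries against their label, and 49 with DESeq2. Without the libraries against their label, 109 genes were called at 6 months against 0, 139 at 12 months against 6, and 348 in batch 2 at 28 months against 205.

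Called genes changed sign only with a covariate: Col1a1 (0.11) and Col1a2 (0.13) with the tendon list, and Hspa1l (0.002077) with the slow-fibre list. Genes not called did so too. With the slow-fibre list, Pik3ca was 0.012, Myh2 -0.028, Smox -0.11 and Odc1 0.12. Socs2 was 0.018 with the tendon list. Mstn was 0.22 with voom, 0.57 with the endothelial list, 1.15 with the tendon list and, without 1 library, -0.5224 to 0.5528, positive without F replicate 4. Myh4 was 0.39, 0.93 and 2.42 in the same order, and -1.272 to 0.9058 without 1 library, also positive without F replicate 4. Igf1 was 0.0096 with the fast-fibre list, 0.13 with the tendon list and 0.078 without M replicates 3 and 4 (the lowest M libraries on the leading dimension of distance, chosen after seeing the data), and -0.1414 to 0.03312 without 1 library, positive without M replicate 3 or 4 or F replicate 5 or 6. The causes were not tested. At this depth and n, a difference that missed the threshold is not shown to be absent.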

Other observations

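Genes of the X chromosome, outside the autosomal comparison, were tested in the same fit. Of 495, 4 were higher and 13 lower in M, against 222 higher and 192 lower of the 14692 autosomal genes. Besides Xist, the lower genes with the smallest p were Eif2s3x (log2 -0.77, edgeR adjusted p = 2.3e-08), Kdm5c (-0.79, 4.97e-07), Kdm6a (-0.90, 5.16e-06) and Ddx3x (-0.60, 1.49e-05), all known to escape X inactivation in mice. The tendon gene Tnmd (-0.60, 0.0013), the matrix proteoglycan Bgn (-0.38, 0.0147), the protease inhibitor Timp1 (-1.16, 0.00282) and the slow-muscle gene Fhl1 (-0.39, 0.00483), which are not in the autosomal lists, were lower in M as well. Maob (0.55, 0.0185) and Idh3g (0.24, 0.0338), mitochondrial enzymes, were higher in M.

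Some gene families, grouped by symbol after their values were seen, held several called genes. Of 50 autosomal potassium channel genes tested, 6 were higher in M (Kcnj3, Kcng4, Kcnq3, Kcna7, Kcnj15 and Kcnb2) and 1 lower (Kcnj11, the pore of the ATP-sensitive channel), with a family median of 0.0941. Of 36 collagen genes 7 were lower in M and none higher, and of 4 thrombospondin genes Thbs4, Thbs2 and Thbs3 were lower. Of 238 solute carrier genes 8 were higher and 1 lower, and of 3 paraoxonase genes 2 were higher. Over all autosomal genes tested, 1.51% were higher and 1.31% lower in M. Among the lists with no call, 20 of 22 immediate early genes had a positive log2 fold change (median 0.366) and 44 of 48 cytosolic ribosomal protein genes a negative one (median -0.0542). Of all 14692 autosomal genes tested, 7562 were positive and 7130 negative.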
